A study of Mus musculus with 30 samples.

Results

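In these data, 10 members of the ADP-ribosylation machinery that are linked to interferon were followed: the ADP-ribosyltransferase genes Parp1, Parp3, Parp8, Parp9, Parp10, Parp11, Parp12 and Parp14, the ubiquitin ligase gene Dtx3l, and Zc3hav1, which encodes the zinc-finger antiviral protein ZAP (also called PARP13). They were chosen by name, with earlier results of these data known. Shares of all genes beside their counts are therefore background and not a test of the choice. All 10 were found among the 49315 genes in the files and were among the 21138 tested. RNA was sequenced from B16F10 mouse melanoma cells (B16) and from 6694c2 mouse pancreatic ductal adenocarcinoma cells (C2), both with the genotype given as C57BL/6. Each line received vehicle, IFNγ (100 ng/mL), IFNβ (1000 U/mL) or STING agonist (225 µg/mL) for 24 h, and each of the 8 groups had 3 libraries. The 6694c2 line came from a pancreatic tumor model with Pdx-cre and a floxed p53 allele, so each tumor type was represented by 1 cultured line. What the vehicle was, and whether the 3 libraries of a group came from separate cultures, is not given in the sources used here, so p-values measure the spread between these libraries, which may be technical.

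PARP enzymes take ADP-ribose from NAD and attach it to proteins or nucleic acids. PARP1 builds poly(ADP-ribose) chains at DNA breaks, whereas most of the other members attach a single ADP-ribose or, like ZAP, none. Interferons act through JAK kinases and STAT proteins, with interferon-stimulated response elements as the DNA sites of type I interferons such as IFNβ and gamma-activated sites as those of IFNγ. STING, a sensor of cyclic dinucleotides, leads to type I interferon production. Several PARP genes are known interferon-stimulated genes whose products restrict viruses or modify interferon signaling.

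The libraries held 15543131 to 32266795 reads assigned to genes. Levels are given as RPKM, reads scaled to the TMM-adjusted size of the library and to the gene length in the files, which is the scale on which genes were compared with each other. Fold changes are log2 values from edgeR's quasi-likelihood test on counts, given with their standard errors, and a gene was called at a Benjamini-Hochberg adjusted p-value under 0.05 over all 21138 genes. Melanocyte markers marked the B16 libraries and ductal epithelial markers the C2 libraries. The summed level of 10 melanocyte genes in C2 libraries was 0.112 to 0.778% of the median of its B16 group medians. That of 10 epithelial genes in B16 libraries was 0.0992 to 0.985% of the median of its C2 group medians. With vehicle, C2 cells had 10 of 10 melanocyte genes called lower than B16 cells (29.3% of all genes). Of the 10 epithelial genes 8 were called higher there (28.7% of all genes) and 2 were not called. In the 3 B16 libraries with STING agonist the epithelial share was 0.745 to 0.985%, the highest of the B16 groups. The summed CPM (reads scaled to library size) of 7 B-cell genes was 59.1 to 67.7 in C2 cells with IFNβ and 17.5 to 34.96 in the other C2 groups. With IFNβ against vehicle in C2 cells 1 of the 7 was called higher (10.4% of all genes) and 6 were not called. Their log2 fold changes ran from -0.53 to 4.77, with a median of 0.18. The part of these transcripts in the results below was not tested.

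A cluster of 3 of the genes lies on mouse chromosome 16 (GRCm38 coordinates, 1-based, which the files share for 9 of the 10 genes in GENCODE M21). Parp9 (chr16:35938470-35972605, forward strand) and Dtx3l (chr16:35926511-35939151, reverse strand) are arranged head to head, with starts 681 bp apart. Their first exons overlap: 458 exon bases are shared, 9.4% of the exon bases of Parp9 and 8.0% of those of Dtx3l. Whether strand was used in counting is not stated, so reads in the shared stretch cannot be assigned to either gene with certainty. Parp14 (chr16:35832874-35871544, reverse strand) starts 66926 bp from the start of Parp9. Parp12 (chr6:39086410-39118349) and Zc3hav1 (chr6:38305286-38354603), both on the reverse strand of chromosome 6, start 763746 bp apart. Of the exon bases of Parp10, 4.8% lie in Plec on the same strand.

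**Figure D1:**
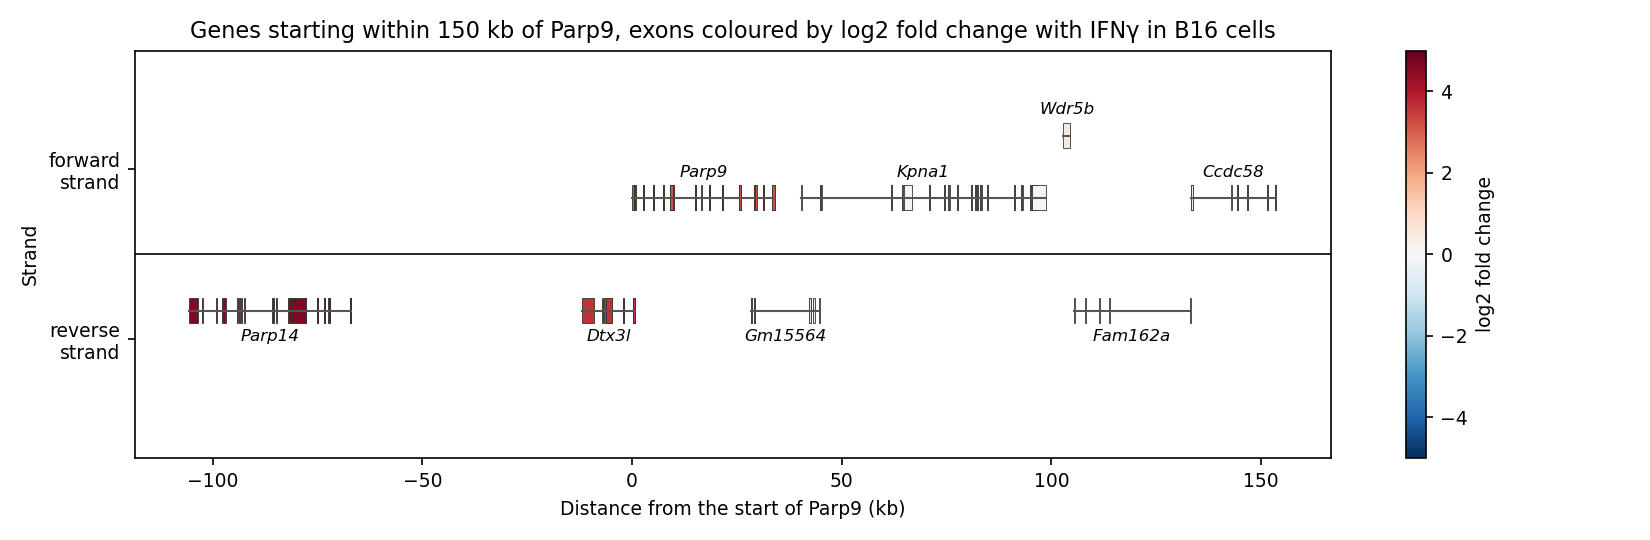
Genes that start within 150 kb of Parp9 on chromosome 16, by distance in kb from the start of Parp9 (x axis) and strand (y axis), with boxes for exons coloured by log2 fold change with IFNγ against vehicle in B16 cells. Parp14, Dtx3l and Parp9 changed by 4.63, 3.62 and 3.18, whereas the 5 other tested genes of the window lay between -0.65 and 0.56.

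The other genes in this window, which was chosen after the values were seen, had smaller fold changes with IFNγ than the 3 cluster genes. Of the 5 tested, 1 was called higher and 1 lower with IFNγ in B16 cells (11.96 and 10.8% of all genes). Their log2 fold changes ran from -0.65 to 0.56. With IFNβ in B16 cells 1 was called higher and 2 lower (12.7 and 11.2% of all genes). In C2 cells 1 was called higher with IFNγ (7.89% of all genes) and 1 with IFNβ (10.4%). The log2 fold changes in C2 cells with IFNγ ran from -0.050 to 0.35. Kpna1, which encodes an importin and starts 40280 bp from Parp9, stayed between 85.6 and 109 CPM in every B16 group and was not called with either interferon in either line (log2 fold changes of -0.10 to 0.075). With IFNβ in C2 cells the range reached 1.42, the value of Gm15564 (adjusted p = 0.0125).

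Promoter sequences from RefSeq (GRCm38.p6; 250 bases before to 50 bases after a gene's start) were matched for 7 of the 10 genes, with 8 windows: Parp1, Parp3, Parp8, Parp11, Parp12, Dtx3l and Zc3hav1, and not Parp9, Parp10 and Parp14. They are shown for the gene whose window held both interferon motifs searched, for Zc3hav1 and Parp12 as genes that rose with interferon, and for Parp1 as the gene that fell. For Parp12 the 123 bases between its start and that of a divergent transcript are printed. The motifs were GAAANNGAA, the core of the interferon-stimulated response element, and TTCNNNGAA, the gamma-activated site, each on both strands. The sequences run 5′ to 3′ on the strand of the gene, with motif matches in capitals.
Parp11 (chr6:127446590-127446839, forward strand): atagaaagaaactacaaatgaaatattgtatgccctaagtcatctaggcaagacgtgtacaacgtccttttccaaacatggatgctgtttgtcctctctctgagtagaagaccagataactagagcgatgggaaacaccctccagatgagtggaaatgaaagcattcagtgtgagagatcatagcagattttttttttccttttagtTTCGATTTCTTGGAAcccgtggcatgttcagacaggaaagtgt
Zc3hav1 (chr6:38354604-38354853, reverse strand): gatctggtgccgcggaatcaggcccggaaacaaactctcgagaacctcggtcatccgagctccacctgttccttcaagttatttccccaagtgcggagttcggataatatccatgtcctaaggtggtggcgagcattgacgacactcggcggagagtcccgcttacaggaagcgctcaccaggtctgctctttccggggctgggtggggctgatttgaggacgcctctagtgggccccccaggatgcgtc
Parp12 (chr6:39118350-39118472, reverse strand): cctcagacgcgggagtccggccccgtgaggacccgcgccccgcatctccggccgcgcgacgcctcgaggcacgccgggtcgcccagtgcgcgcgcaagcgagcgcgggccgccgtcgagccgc
Parp1 (chr1:180568641-180568890, forward strand): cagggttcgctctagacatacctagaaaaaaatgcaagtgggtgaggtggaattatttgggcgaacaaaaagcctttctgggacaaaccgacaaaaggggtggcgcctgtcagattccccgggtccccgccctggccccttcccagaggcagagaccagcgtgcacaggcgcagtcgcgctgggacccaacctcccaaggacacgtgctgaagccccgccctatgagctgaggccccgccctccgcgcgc

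Parp11, which has 2 windows, was the single gene of the 7 with a match. The window at chr6:127446590-127446889 held the response element core on the reverse strand at 43 to 35 bases before the start, overlapping a gamma-activated site at 37 to 29 bases before it. Of all 32851 windows searched, 8.56% held the first motif, 8.3% the second and 1.07% both. Counted by gene, 9.76% of 27025 genes had a window with the first motif and 9.55% one with the second. Absence of a match says only that these letters are not in the window. The windows also differed in composition: the Parp12 window was 73.7% G or C with 46 CpG dinucleotides, the Parp11 window with the motifs 42% with 5, and the median of all windows was 52.7% with 7.

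Without treatment, transcripts for the DNA repair enzyme PARP1 and for ZAP were the most abundant of the 10 per length, and Parp14 the least, in both lines. In B16 cells with vehicle, Parp1 stood at 43.1 ± 0.205 RPKM (SD, n = 3) and Zc3hav1 at 26.7 ± 0.502, followed by Parp12 (15.7 ± 0.564), Parp3 (13.3 ± 0.62), Parp10 (10.1 ± 0.555) and Parp9 (9.17 ± 0.527). Dtx3l, Parp8 and Parp11 (3.1 ± 0.0893, 3.02 ± 0.629 and 2.96 ± 0.197) had overlapping libraries, and Parp14 was at 2.01 ± 0.192. In C2 cells Parp1 (32.6 ± 1.14) and Zc3hav1 (18.7 ± 1.85) again led, and the next was Parp3 at 6.43 ± 0.491. Parp12, Parp11 and Dtx3l (1.5 ± 0.0766, 1.47 ± 0.197 and 1.46 ± 0.298) had overlapping libraries, Parp8 was at 4.32 ± 0.0986, Parp9 at 2.37 ± 0.272, Parp10 was at 1.04 ± 0.0771 and Parp14 at 0.308 ± 0.108.

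The untreated lines differed in 10 of 10 genes. In C2 cells 9 were lower than in B16 cells, where 29.3% of all genes tested were, and 1, Parp8, was higher (28.7% of all genes). The difference was largest for Parp12, which was 10.4 times lower (-3.38 ± 0.088, adjusted p = 9.49e-31), Parp10, 9.74 times lower (-3.28 ± 0.095, adjusted p = 3.52e-29), and Parp14, 6.55 times lower (-2.71 ± 0.17, adjusted p = 5.24e-18). Parp9 was 3.87 times lower and its neighbour Dtx3l 2.13 times. Parp3 (2.07 times), Parp11 (2.01 times), Zc3hav1 (1.43 times) and Parp1 (1.32 times) differed less. Parp8, a mono-ADP-ribosyltransferase, was 1.44-fold higher in C2 cells (0.53 ± 0.12, adjusted p = 0.000178). In bulk RNA, fewer cells expressing a gene and less RNA per cell cannot be told apart, and the difference between the lines is also one of tissue of origin and culture.

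**Figure D2:**
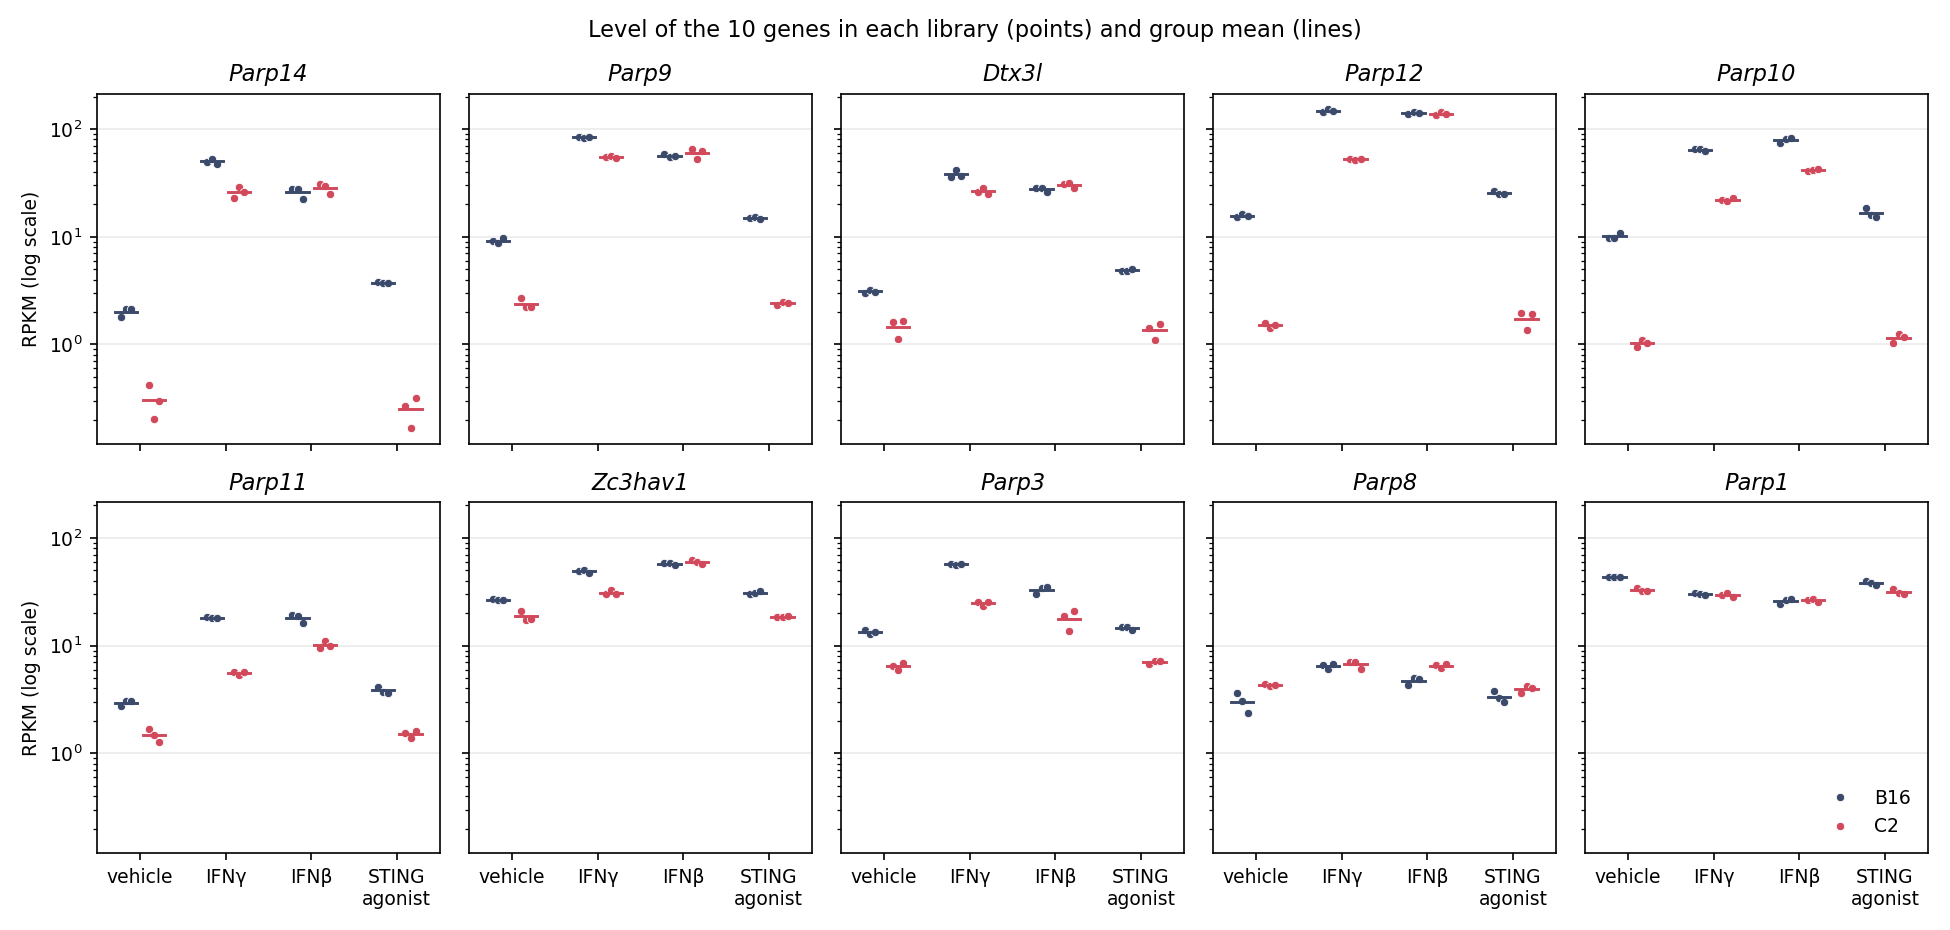
RPKM on a log axis for the 10 genes (panels) by treatment (x axis) in B16 (dark blue) and C2 cells (red), with a point for each library and a line for the mean of 3. The red points lie below the blue ones with vehicle in 9 of the panels, with Parp8 as the exception. With IFNβ they meet the blue points for Parp14, Parp9, Dtx3l, Parp12, Zc3hav1 and Parp1.

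Both interferons raised 9 of the 10 genes in both lines, and Parp1 was lower in each case but IFNγ in C2 cells, where it was not called. In B16 cells with IFNγ 9 were higher and 1 lower than with vehicle, where 11.96% of all genes were higher and 10.8% lower, with a median log2 fold change of the 10 genes of 2.64. With IFNβ in B16 cells 9 were higher and 1 lower as well (12.7 and 11.2% of all genes), with a median of 2.62. C2 cells with IFNγ had 9 higher (7.89% of all genes) and a median of 3.08, and with IFNβ 9 higher and 1 lower (10.4 and 7.86%) and a median of 3.61. Over all genes tested, the medians of these comparisons lay between 0 and 0.0194. The comparisons within a line share their 3 vehicle libraries. Added over the 10 genes, the level rose from 129 ± 0.994 RPKM with vehicle to 545 ± 10.4 with IFNγ and 469 ± 6.87 with IFNβ in B16 cells, and from 70.2 ± 3.86 to 279 ± 5.01 and 419 ± 6.53 in C2 cells (SD, n = 3). Parp12 took the largest share of this sum with IFNβ, 30.03% in B16 and 33.02% in C2 cells, against 12.1 and 2.14% with vehicle.

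**Figure D3:**
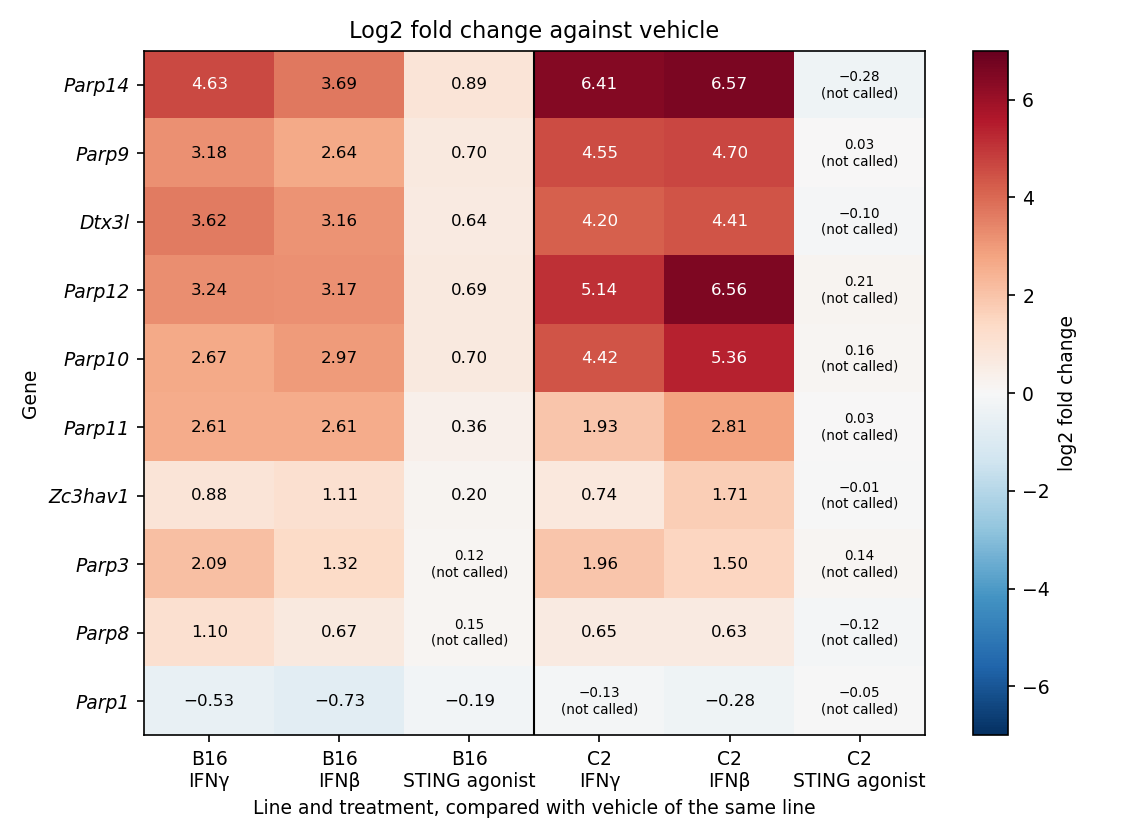
Log2 fold change against vehicle of the same line (colour and printed value) for the 10 genes (y axis) in the 6 treatment comparisons (x axis), with genes that were not called marked so. Values are positive with both interferons for 9 genes and negative for Parp1, reach 6.57 for Parp14 in C2 cells with IFNβ, and lie between -0.28 and 0.21 in C2 cells with STING agonist.

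Parp14, which encodes a macrodomain-containing mono-ADP-ribosyltransferase known from STAT6 signaling, had the widest range. In B16 cells it was at 1.79, 2.12 and 2.12 RPKM with vehicle, 49.5, 52.9 and 47.8 with IFNγ and 27.8, 27.6 and 22.6 with IFNβ. In C2 cells it was at 0.42, 0.204 and 0.301 with vehicle, 23.1, 28.8 and 25.8 with IFNγ and 30.9, 29.7 and 24.8 with IFNβ. Every treated library was thus far above every vehicle library of its line. The log2 fold changes were 4.63 ± 0.068, adjusted p = 3.71e-221 with IFNγ and 3.69 ± 0.067, adjusted p = 2.62e-188 with IFNβ in B16 cells, and 6.41 ± 0.14, adjusted p = 1.36e-33 and 6.57 ± 0.14, adjusted p = 4.35e-34 in C2 cells. The C2 values are 84.9- and 94.7-fold, ranks 56 and 67 of 21138 genes. They rest on 67, 34 and 46 reads in the C2 vehicle libraries, in which the melanocyte markers were at 0.508 to 0.525% of their B16 level. In the C2 libraries with STING agonist these markers were at 0.112 to 0.135% and Parp14 was at 0.271, 0.167 and 0.318 RPKM. The part of the melanocyte transcripts in the Parp14 values was not tested.

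The head-to-head genes Parp9 and Dtx3l encode partners: PARP9 binds the ubiquitin ligase DTX3L, and the complex acts in DNA damage and interferon responses. Parp9 was at 9.09, 8.69 and 9.74 RPKM in B16 cells with vehicle, 83.6, 82.8 and 83.9 with IFNγ and 58.9, 54.6 and 56.7 with IFNβ. In C2 cells it was at 2.68, 2.21 and 2.21, 55.2, 55.8 and 53.5, and 65.6, 52.4 and 62.1, in the same order. The groups of each line did not overlap between vehicle and either interferon. Its fold changes were 9.07 and 6.21 in B16 cells with IFNγ and IFNβ (log2 3.18 ± 0.061 and 2.64 ± 0.060) and 23.4 and 25.9 in C2 cells (log2 4.55 ± 0.091 and 4.70 ± 0.091), with adjusted p-values of at most 4.17e-35. Dtx3l was at 3.02, 3.2 and 3.1 RPKM in B16 cells with vehicle, 36.1, 42 and 36.9 with IFNγ and 28.1, 28.5 and 26.2 with IFNβ. The C2 values were 1.61, 1.12 and 1.66, 26.2, 28.5 and 25, and 31.1, 31.6 and 28.1. Dtx3l thereby rose 12.3- and 8.93-fold in B16 and 18.4- and 21.2-fold in C2 cells (adjusted p at most 4.39e-31).

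Per length, Parp9 exceeded Dtx3l in every library, but not by a fixed factor. The Parp9 to Dtx3l ratio of RPKM was 3.01, 2.72 and 3.14 in B16 cells with vehicle and 3.13, 3.18 and 2.95 with STING agonist. With IFNγ it was 2.32, 1.97 and 2.28, and with IFNβ 2.09, 1.92 and 2.17, below every vehicle library, so Dtx3l rose by the larger factor in this line. In C2 cells the ratio was 1.67, 1.97 and 1.33 with vehicle, 2.11, 1.95 and 2.14 with IFNγ and 2.11, 1.66 and 2.21 with IFNβ, and these groups overlapped. With either interferon the group means lay between 1.99 and 2.19 in both lines, from 2.96 in B16 and 1.66 in C2 cells with vehicle. Any share of reads misassigned in the overlapping exons enters this ratio and was not tested.

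Parp12 encodes a zinc-finger mono-ADP-ribosyltransferase with antiviral activity. It was the most abundant of the 10 transcripts in B16 cells with either interferon and in C2 cells with IFNβ. In B16 cells it was at 15.3, 16.3 and 15.5 RPKM with vehicle, 145, 152 and 147 with IFNγ and 138, 142 and 142 with IFNβ. In C2 cells it rose from 1.58, 1.42 and 1.51 to 52.9, 51.5 and 52.8 with IFNγ and 135, 142 and 137 with IFNβ. With IFNβ the libraries lay just below those with IFNγ in B16 cells and far above them in C2 cells. Fold changes were 9.42 and 9.02 in B16 (log2 3.24 ± 0.058 and 3.17 ± 0.058) against 35.2 and 94.2 in C2 cells (log2 5.14 ± 0.098 and 6.56 ± 0.10; adjusted p at most 1.11e-35).

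Parp10, a mono-ADP-ribosyltransferase gene, followed a similar course at lower levels. It went from 9.81, 9.75 and 10.7 RPKM to 64.6, 65.9 and 62.6 with IFNγ and 73.7, 80.5 and 81.8 with IFNβ in B16 cells, and from 0.956, 1.11 and 1.04 to 22.1, 21.3 and 22.7 and 40.6, 42 and 42.5 in C2 cells. Groups did not overlap within either line. The log2 fold changes were 2.67 ± 0.061 and 2.97 ± 0.061 in B16 and 4.42 ± 0.096 and 5.36 ± 0.096 in C2 cells, the last a 41.1-fold change (adjusted p at most 8.69e-34).

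Parp11, whose product is a mono-ADP-ribosyltransferase linked to the nuclear envelope, was the gene with both motifs. It was at 2.74, 3.07 and 3.08 RPKM in B16 cells with vehicle, 18.4, 18.2 and 17.9 with IFNγ and 19.1, 18.8 and 16.1 with IFNβ, and changed by 2.61 ± 0.070 and 2.61 ± 0.070. In C2 cells it was at 1.67, 1.48 and 1.28, 5.68, 5.34 and 5.68, and 9.43, 11 and 10.0, changing by 1.93 ± 0.099 and 2.81 ± 0.097 (adjusted p at most 4.62e-20). The interferon groups overlapped in B16 cells and were separate in C2 cells. Zc3hav1, already high without treatment, had its highest levels with IFNβ, where the libraries of the lines overlapped. Its libraries were at 27.3, 26.3 and 26.7 RPKM with vehicle, 49.3, 50.5 and 47.7 with IFNγ and 58.1, 58.6 and 55.7 with IFNβ in B16 cells, and at 20.8, 17.4 and 17.8, 29.9, 32.6 and 30.1, and 61.8, 59.9 and 56.9 in C2 cells. All 4 interferon comparisons were called, at 0.88 ± 0.054 and 1.11 ± 0.054 in B16 and 0.74 ± 0.069 and 1.71 ± 0.070 in C2 cells (adjusted p at most 1.76e-11).

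The remaining genes encode PARP3, a DNA break-responsive mono-ADP-ribosyltransferase, PARP8 and PARP1. Parp3 was at 14, 12.7 and 13.3 RPKM with vehicle, 57.7, 56.2 and 56.8 with IFNγ and 30.4, 34 and 34.7 with IFNβ in B16 cells, and at 6.5, 5.91 and 6.89, 25.3, 23.2 and 25.6, and 18.7, 13.7 and 20.9 in C2 cells. In both lines its libraries with IFNγ were above those with IFNβ. Log2 fold changes were 2.09 ± 0.062 with IFNγ and 1.32 ± 0.062 with IFNβ in B16 cells, and 1.96 ± 0.10 and 1.50 ± 0.10 in C2 cells (adjusted p at most 3.47e-16). Parp8 changed by 1.10 ± 0.11 and 0.67 ± 0.11 in B16 and by 0.65 ± 0.10 and 0.63 ± 0.10 in C2 cells (adjusted p at most 6.13e-06), over group means of 3.02 ± 0.629 to 6.73 ± 0.556 RPKM.

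Parp1 was at 43.3, 42.9 and 43.2 RPKM in B16 cells with vehicle and fell to 30.6, 30.2 and 29.2 with IFNγ and 24.3, 26.2 and 27.3 with IFNβ. All treated libraries were below all vehicle libraries. The log2 fold changes were -0.53 ± 0.055, adjusted p = 7.68e-18 and -0.73 ± 0.056, adjusted p = 7.4e-31, which is 1.44 and 1.65 times lower. In C2 cells it was at 33.9, 32.1 and 31.9 with vehicle, 29.5, 30.7 and 28.3 with IFNγ and 26.4, 27.2 and 25.2 with IFNβ. There the change was called with IFNβ (-0.28 ± 0.066, adjusted p = 0.00146) and not with IFNγ (-0.13 ± 0.066, adjusted p = 0.226, interval -0.26 to -0.0027). Parp1 was the most abundant of the 10 transcripts with vehicle in both lines. With IFNβ it had a mean below those of Parp12, Parp10, Zc3hav1, Parp9, Dtx3l and Parp14 in both lines. Its libraries with IFNβ overlapped those of Parp14 in both lines and those of Dtx3l in B16 cells.

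STING agonist raised 7 of the 10 genes in B16 cells, where 1.93% of all genes were higher, and lowered 1, where 1.53% were lower. In these libraries the epithelial markers were at 0.745 to 0.985% of their C2 level, against 0.0992 to 0.145% with vehicle, and their part in the result was not tested. Parp14 was at 3.81, 3.72 and 3.74 RPKM, above every vehicle library (0.89 ± 0.071, adjusted p = 9.97e-28). Parp9 was at 15.1, 15.2 and 14.7 (0.70 ± 0.061), Parp10 at 18.4, 16 and 15.3 (0.70 ± 0.062) and Parp12 at 26.3, 24.8 and 25.1 (0.69 ± 0.057). Dtx3l (0.64 ± 0.075) and Parp11 (0.36 ± 0.077) were also called, with adjusted p-values for these 6 of at most 0.000357. For Parp14, Dtx3l and Parp12 the rise over vehicle was 7.3, 7.18 and 7.78% of the rise with IFNβ, and for Parp9 12.3%. For Parp11, Parp10 and Zc3hav1 it was 5.8, 9.45 and 13.5%. Zc3hav1 (0.20 ± 0.054, adjusted p = 0.0111) and Parp1 (-0.19 ± 0.055, adjusted p = 0.0272) were called with small changes. Zc3hav1 was not called without vehicle replicate 2 (adjusted p = 0.0806), vehicle replicate 3 (0.0569) or STING agonist replicate 3 (0.165). Parp1 was not called without vehicle replicate 1 (0.091), 2 (0.0806) or 3 (0.0908), or STING agonist replicate 2 (0.0908) or 3 (0.288). Parp3 (0.12 ± 0.064, adjusted p = 0.433) and Parp8 (0.15 ± 0.12, adjusted p = 0.673) were not called.

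In C2 cells with STING agonist edgeR called 0 of the 10 genes, where 0.360% of all genes were called in either direction. The log2 fold changes lay between -0.28 (Parp14) and 0.21 (Parp12). At an unadjusted p-value under 0.05 edgeR and DESeq2 each gave 0 of 10, and DESeq2 called 0 after adjustment. Parp9 was at 2.34, 2.49 and 2.43 RPKM, among its vehicle libraries, with an interval of the log2 fold change of -0.16 to 0.23 (1.96 standard errors on either side), which lies below the 0.70 seen in B16 cells. For Parp12 (1.94, 1.35 and 1.92 RPKM) the interval was -0.016 to 0.44, for Parp10 -0.082 to 0.39 and for Dtx3l -0.35 to 0.14. For Parp14, with the fewest reads (64, 43 and 84), it was wider, -0.69 to 0.13.

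The difference between the lines was tested itself, over all 24 libraries. With STING agonist the change was lower in C2 than in B16 cells for 5 of the 10 genes (1.56% of all genes). These were Parp14 (-1.19 ± 0.26, adjusted p = 0.00438), Dtx3l (-0.75 ± 0.16, adjusted p = 0.00303), Parp9 (-0.68 ± 0.12, adjusted p = 0.000185), Parp10 (-0.56 ± 0.14, adjusted p = 0.0187) and Parp12 (-0.49 ± 0.13, adjusted p = 0.0255). Parp9 and Dtx3l were called in every fit that left out a library. Parp14 was not called without C2 vehicle replicate 1 (adjusted p = 0.1). Parp10 was not called without B16 vehicle replicate 1 (0.0573) or 2 (0.0573), B16 STING agonist replicate 1 (0.0777), C2 vehicle replicate 2 (0.106) or 3 (0.0582), or C2 STING agonist replicate 1 (0.0964). Parp12 was not called without B16 vehicle replicate 1 (0.0764) or 3 (0.0611), B16 STING agonist replicate 1 (0.0798), C2 vehicle replicate 1 (0.0877) or 3 (0.0709), or C2 STING agonist replicate 2 (0.135).

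The interferon effects also differed between the lines, in the other direction. With IFNβ the log2 fold change, with its sign, was higher in C2 cells for 7 of the 10 genes (6.16% of all genes), which was a larger rise for 6 and a smaller fall for Parp1. The difference was largest for Parp12 (3.36 ± 0.11, adjusted p = 2.58e-25), Parp14 (2.84 ± 0.19, adjusted p = 9.97e-15), Parp10 (2.37 ± 0.12, adjusted p = 4.87e-19) and Parp9 (2.04 ± 0.11, adjusted p = 2.48e-18). Dtx3l (1.22 ± 0.14) and Zc3hav1 (0.57 ± 0.085) followed, with Parp1 at 0.42 ± 0.082 (adjusted p at most 0.000286). The differences for Parp3 (0.16 ± 0.13), Parp11 (0.18 ± 0.12) and Parp8 (-0.072 ± 0.16) were not called, although Parp3 was called without C2 IFNβ replicate 2 (0.31, adjusted p = 0.0388). With IFNγ the signed change was higher in C2 cells for 6 genes (4.52% of all genes) and lower for 1 (4.95%). The 6 were Parp12 (1.88 ± 0.11), Parp14 (1.76 ± 0.20), Parp10 (1.74 ± 0.12), Parp9 (1.35 ± 0.11), Dtx3l (0.56 ± 0.14) and Parp1 (0.38 ± 0.082), with adjusted p-values of at most 0.00542, and Dtx3l was not called without C2 vehicle replicate 2 (adjusted p = 0.0709). The 1 was Parp11 (-0.69 ± 0.13, adjusted p = 0.000115). Parp8 missed the threshold (-0.47 ± 0.16, adjusted p = 0.0505) and passed it without B16 vehicle replicate 1 (0.0184) or C2 IFNγ replicate 2 (0.0472).

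The genes with larger rises in C2 cells started from lower levels there, so the lines were compared at each treatment, in comparisons added after the results above were seen. With IFNγ 8 of the 10 genes were still lower in C2 cells (31.1% of all genes), by 1.44 times for Dtx3l up to 3.25 times for Parp11. With IFNβ 4 of the 10 genes differed between the lines in either direction, against 61.4% of all genes: 3 were lower (31.5% of all genes) and 1 was higher (29.9%). For 6 genes the difference was not called. Parp12, 10.4 times lower in C2 cells with vehicle, differed by -0.026 with IFNβ (interval -0.15 to 0.094). Parp14 differed by 0.13 (-0.049 to 0.31), Parp9 by 0.082 (-0.043 to 0.21), Dtx3l by 0.13 (-0.021 to 0.28), Zc3hav1 by 0.051 (-0.064 to 0.17) and Parp1 by 0.018 (-0.096 to 0.13). Without C2 IFNβ replicate 2 Parp9 was called higher in C2 cells (0.17, adjusted p = 0.016), and without replicate 3 Parp14 was (0.22, adjusted p = 0.0418). The genes that stayed lower in C2 cells were Parp10 (-0.92 ± 0.062, adjusted p = 1.27e-16), Parp3 (-0.89 ± 0.085) and Parp11 (-0.83 ± 0.073), and Parp8 was higher (0.46 ± 0.10, adjusted p = 0.000213). With IFNγ the Parp8 difference was not called (0.054 ± 0.10, adjusted p = 0.689).

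**Figure D4:**
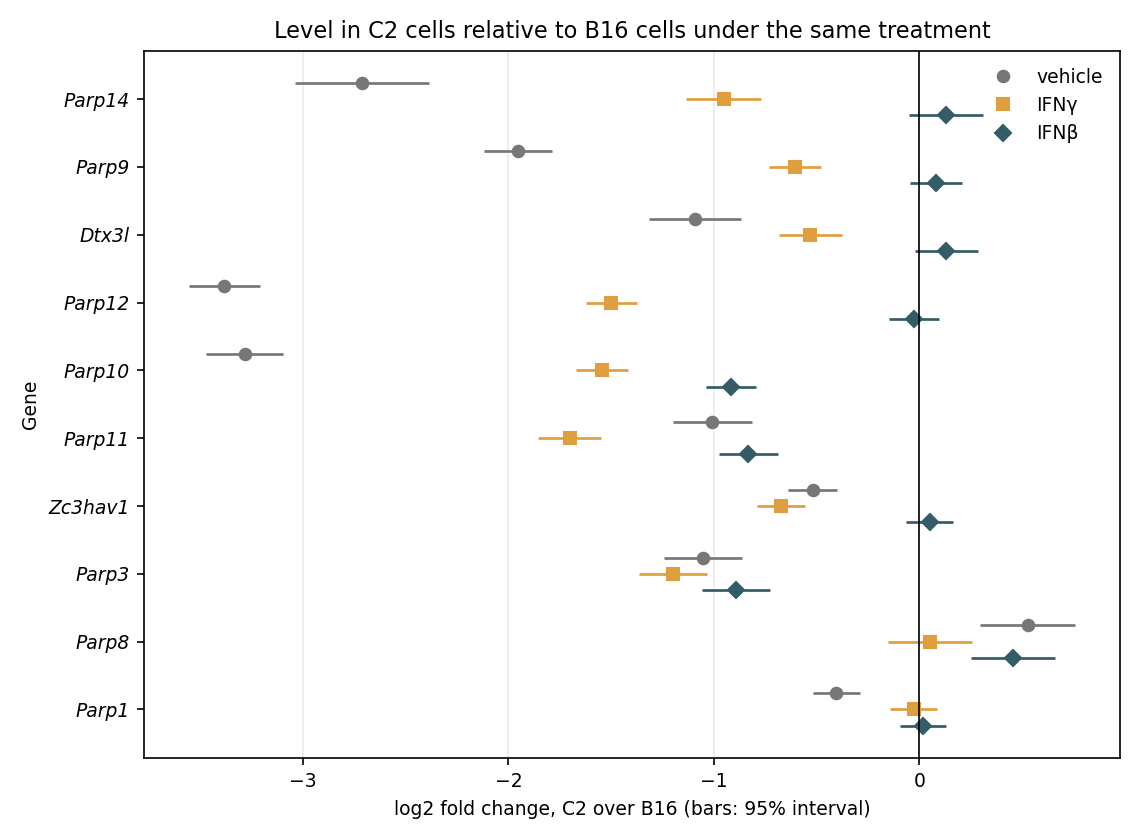
Log2 fold change of C2 over B16 cells (x axis) for each gene (y axis) with vehicle (grey circles), IFNγ (orange squares) and IFNβ (teal diamonds), with bars for the 95% interval (1.96 standard errors on either side). With IFNβ the intervals of Parp14, Parp9, Dtx3l, Parp12, Zc3hav1 and Parp1 include 0, whereas with vehicle those of Parp12 and Parp10 lie near -3.38 and -3.28.

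Within a line, the interferons were compared with each other. In B16 cells 2 genes were higher with IFNβ than with IFNγ (6.65% of all genes), Parp10 (0.30 ± 0.055, adjusted p = 1.89e-06) and Zc3hav1 (0.24 ± 0.053, adjusted p = 0.000166), and 6 were lower (7.85%). The 6 were Parp14 (-0.93 ± 0.055), Parp3 (-0.77 ± 0.058), Parp9 (-0.55 ± 0.054), Dtx3l (-0.46 ± 0.058), Parp8 (-0.43 ± 0.10) and Parp1 (-0.20 ± 0.056), with adjusted p-values of at most 0.00425. Parp12 (-0.062 ± 0.052) and Parp11 (0.0043 ± 0.061) were not called. In C2 cells 4 genes were higher with IFNβ (7.30%): Parp12 (1.42 ± 0.073, adjusted p = 6.17e-20), Zc3hav1 (0.97 ± 0.068, adjusted p = 3.13e-15), Parp10 (0.94 ± 0.069, adjusted p = 1.3e-14) and Parp11 (0.88 ± 0.084, adjusted p = 2.61e-11). Only Parp3 was lower there (6.57% of all genes; -0.46 ± 0.091, adjusted p = 0.000238). Parp14 (0.16 ± 0.093), Parp9 (0.15 ± 0.071) and Dtx3l (0.21 ± 0.084), the chromosome 16 genes, were not called in C2 cells, but Parp9 was without IFNβ replicate 2 (0.23, adjusted p = 0.0199) and Dtx3l without IFNβ replicate 3 (0.26, adjusted p = 0.0392).

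The log2 fold change of IFNβ over IFNγ, with its sign, was itself higher in C2 than in B16 cells for 7 of the 10 genes (4.58% of all genes), again in a comparison added later. It was shifted most for Parp12 (1.47 ± 0.088, adjusted p = 1.25e-16) and Parp14 (1.08 ± 0.13, adjusted p = 5.18e-08), followed by Parp11 (0.87 ± 0.11), Zc3hav1 (0.72 ± 0.084), Parp9 (0.69 ± 0.091), Dtx3l (0.66 ± 0.11) and Parp10 (0.63 ± 0.089), with adjusted p-values of at most 3.04e-05. Parp8 (0.40 ± 0.15), Parp3 (0.31 ± 0.12) and Parp1 (0.045 ± 0.082) were not called, and Parp3 was called without C2 IFNβ replicate 2 (0.46, adjusted p = 0.000753). Each interferon was used at 1 dose and 1 time, so a difference between the interferons and one between their effective doses cannot be told apart.

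**Figure D5:**
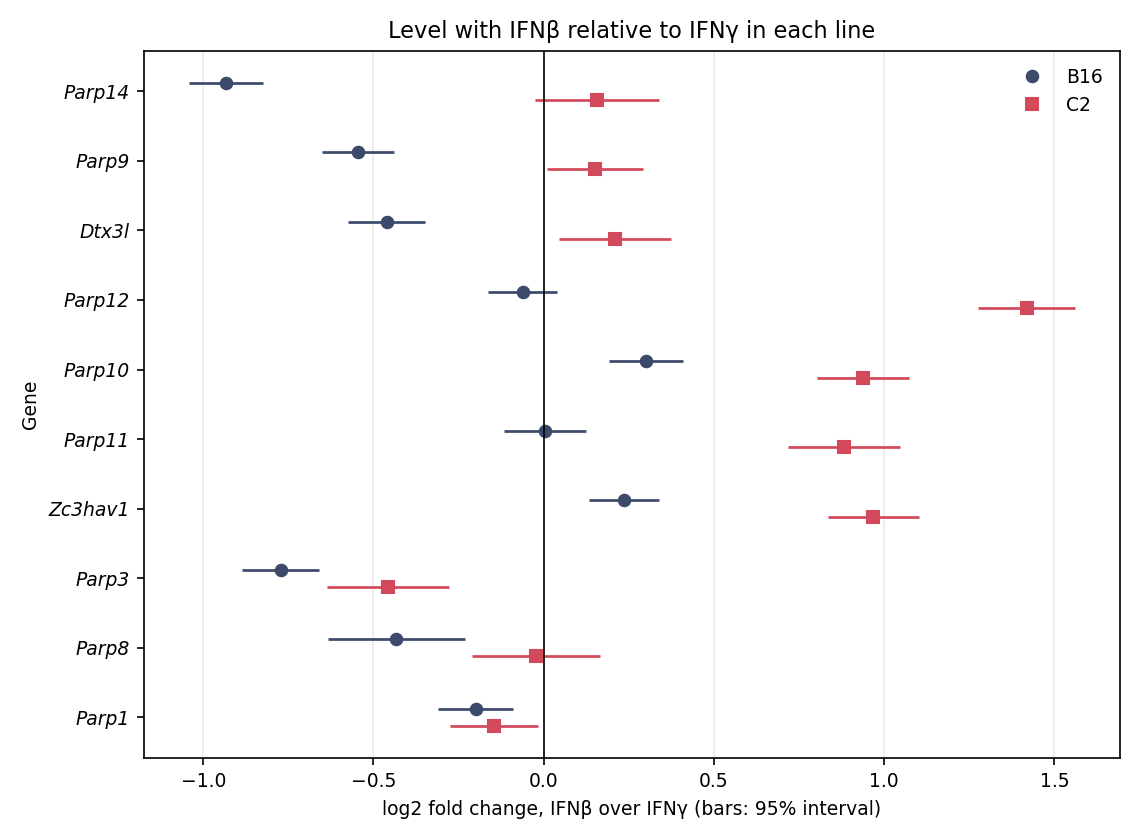
Log2 fold change of IFNβ over IFNγ (x axis) for each gene (y axis) in B16 (dark blue circles) and C2 cells (red squares), with bars for the 95% interval. The C2 values lie to the right of the B16 values for every gene, by 1.47 for Parp12 and by 0.045 for Parp1.

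Across the 8 group means of log2 CPM, among 12386 genes with a mean of at least 1 CPM, the patterns of Parp9 and Parp14 were most like each other of all genes (Pearson r = 0.999), followed by Irgm2, an interferon-inducible GTPase gene (0.989 to Parp9 and 0.992 to Parp14), and then by Cxcl10 for Parp9 (0.989) and Dtx3l for Parp14 (0.989). For Dtx3l the closest were Uba7 (0.995), the E1 enzyme of ISG15 conjugation, Nub1 (0.992) and Oasl2 (0.9902). For Parp12 they were Nmi (0.995), Jdp2 (0.994) and Trim21 (0.993), and for Zc3hav1 Gm6548 (0.997), Ifit3 (0.994) and Ifit3b (0.994), of which Ifit3 and Ifit3b are near-identical and can share reads. For Parp1 they were Brk1 (0.981), Tubb4b (0.971) and Apopt1 (0.969). These values describe 8 means that share lines and treatments.

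Lists of genes that work with these enzymes, chosen with earlier results of these data known, were examined as well. Over all genes, 11.96 and 12.7% were higher with IFNγ and IFNβ in B16 cells and 7.89 and 10.4% in C2 cells, and 10.8, 11.2, 5.66 and 7.86% were lower in the same order. Against these shares, 4 of 5 ZAP cofactors and relatives rose with each interferon in B16 cells, and in C2 cells 3 rose with each and 1 fell with IFNβ. Trim25, the ubiquitin ligase that assists ZAP, changed by 1.08 ± 0.067 and 1.62 ± 0.067 with IFNγ and IFNβ in B16 and by 1.16 ± 0.068 and 2.57 ± 0.070 in C2 cells. Rnf135, a ubiquitin ligase of RIG-I, changed by 2.38 ± 0.087 and 2.36 ± 0.087 in B16 and by 0.42 ± 0.10 and 2.38 ± 0.097 in C2 cells. N4bp1, a ribonuclease gene, changed by 0.57 ± 0.071, 0.71 ± 0.071, 0.74 ± 0.080 and 1.60 ± 0.078 in the same order. With STING agonist Trim25 (0.32 ± 0.070) and Rnf135 (0.33 ± 0.10) were also called in B16 cells. The gene that fell was Zc3hav1l, a relative of Zc3hav1 (-0.71 ± 0.19, adjusted p = 0.00545), and the median of the list with IFNβ was 0.71 in B16 and 1.60 in C2 cells.

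Of 7 other PARP genes, 3 rose with each interferon in B16 cells, 2 rose with each in C2 cells and 1 fell with IFNγ there, where 7.89 to 12.7% of all genes were higher over the 4 comparisons and 5.66% lower with IFNγ in C2 cells, with medians between 0.081 and 0.19. Parp4, the vault PARP, changed by 0.93 ± 0.096 and 0.81 ± 0.096 in B16 and 1.05 ± 0.12 and 0.60 ± 0.12 in C2 cells with IFNγ and IFNβ. Tiparp, a mono-ADP-ribosyltransferase and aryl hydrocarbon receptor target, rose by 0.56 and 0.45 in B16 cells and by 0.49 with IFNβ in C2 cells, and Tnks, a tankyrase, by 0.44, 0.37 and, with IFNγ in C2 cells, 0.27 (adjusted p = 0.0489). Of 7 tested genes of NAD supply, 1 rose with IFNγ and 3 with IFNβ in B16 cells, and in C2 cells 2 rose and 2 fell with IFNγ and 1 rose and 1 fell with IFNβ, with medians between -0.25 and 0.43. A count of 1 in 7 is near the shares of all genes (11.96% higher with IFNγ in B16 cells, 10.4% higher and 7.86% lower with IFNβ in C2 cells). Nampt, the rate-limiting enzyme of NAD salvage, rose by 1.71 ± 0.056 and 0.91 ± 0.056 in B16 and 1.55 ± 0.065 and 1.61 ± 0.064 in C2 cells. Nmnat3 rose in B16 cells with IFNβ (0.43) and STING agonist (0.44) and fell in C2 cells with IFNγ (-0.64) and IFNβ (-0.49). Nmnat2 rose by 0.59 with IFNβ in B16 cells and changed by -0.81 with IFNγ in C2 cells (adjusted p = 0.0499). Of 8 genes that remove ADP-ribose, 1 fell with IFNβ in B16 cells, near the 11.2% of all genes, and 2 in C2 cells, where 7.86% of all genes fell: Oard1 (-0.23 and -0.27) and, in C2 cells, Macrod2 (-0.51). Adprhl1 was not called in any of the 6 comparisons against vehicle, and its value with IFNγ in B16 cells was -1.97 (adjusted p = 0.418). The list's medians with interferon lay between -0.053 and 0.058. Among 4 other Deltex ligases 1 or 2 rose with each interferon, where 7.89 to 12.7% of all genes did, Dtx2 with IFNβ in B16 (0.30) and C2 cells (0.52), Dtx3 with both in B16 cells (0.24 and 0.36), and Dtx4 with IFNγ in C2 cells (0.46). The list's medians lay between 0.084 and 0.92. The highest, with IFNγ in B16 cells, is raised by Dtx1 (1.61, adjusted p = 0.388) and Dtx4 (1.73, adjusted p = 0.11; 0.104 CPM with vehicle and 0.348 with IFNγ), which were not called, and Dtx2 was at 0.21.

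Among the partners of PARP1 in strand break repair, Lig3, a DNA ligase, rose by 0.21 and 0.20 with IFNγ and IFNβ in B16 cells and by 0.29 with IFNβ in C2 cells (adjusted p at most 0.0128). Xrcc1, a scaffold, rose by 0.30 with IFNβ in C2 cells (adjusted p = 0.00771).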

How the data were processed

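RNA of the 24 libraries was sequenced as paired-end reads. The authors checked reads with fastqc and multiQC, trimmed adaptors with cutadapt, aligned with STAR and used Rsubread for read counts per gene, which were deposited unnormalized. The annotation, the strand setting and the treatment of multi-mapping reads are not given in the sources used here. The build in the submitters' processing notes is mm10, and symbols were found for 48970 of 49315 gene identifiers. Counts ranged from 15543131 to 32266795 per library, and the 6 single-cell samples were not analysed here.

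Genes with at least 10 reads over the 24 libraries were kept, and the counts were fitted with edgeR 4.0.16 (TMM, quasi-likelihood, Benjamini-Hochberg) in R 4.3.3, on the 12 libraries of a line for comparisons within it and on all 24 for differences between lines. The standard error is the size of the fold change over the square root of F, and intervals are 1.96 standard errors on either side. The fit was tested on simulated data. The alternatives were DESeq2 1.42.0, scaling by RLE, a filterByExpr or absent filter, a robust fit, a block for the replicate number, 1 fit over all libraries and leaving out each library. RPKM used TMM sizes over the 24 libraries. Correlations used log2 CPM with 0.5 added.

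The 10 genes were all named. From each further list at most 3 genes were named, those called in most of the 6 comparisons against vehicle, with ties decided by the larger change, and the 3 closest patterns were named for Parp9, Dtx3l, Parp14, Zc3hav1, Parp12 and Parp1. Kpna1, Gm15564, 4930599N23Rik, Dtx1 and Zc3hav1l are named beyond it, with their values known. Of the list of PARP1 partners, Lig3 and Xrcc1 are reported, and its counts and median are not reported here. The members and lists were chosen with earlier results of these data known.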

Additional observations from a re-analysis of the deposited data

Results flagged for a closer look

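The following results stood out because the effect of a treatment differed between the lines by a test of the difference itself (edgeR over all 24 libraries, 3 per group, adjusted p under 0.05). Values are log2 differences, C2 minus B16. For IFNβ against vehicle they were Parp12 (3.36), Parp14 (2.84), Parp10 (2.37), Parp9 (2.04), Dtx3l (1.22), Zc3hav1 (0.57) and Parp1 (0.42). For IFNγ against vehicle they were Parp12 (1.88), Parp14 (1.76), Parp10 (1.74), Parp9 (1.35), Dtx3l (0.56), Parp1 (0.38) and Parp11 (-0.69). With STING agonist against vehicle they were Parp14 (-1.19), Dtx3l (-0.75), Parp9 (-0.68), Parp10 (-0.56) and Parp12 (-0.49). The difference between IFNβ and IFNγ itself differed for Parp12 (1.47), Parp14 (1.08), Parp11 (0.87), Zc3hav1 (0.72), Parp9 (0.69), Dtx3l (0.66) and Parp10 (0.63). The first 3 of these comparisons share the vehicle libraries of each line, and the IFNβ and IFNγ libraries of the last are those of the others.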

How the results depend on the processing

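Each log2 fold change of the 10 genes in the 15 comparisons was recomputed, giving 2120 alternative values, of which 2051 kept their direction and their side of the threshold, 25 lost the call, 16 gained one and 28 changed sign. Of the 108 values called, 0 changed sign. With STING agonist in B16 cells, 1 fit over all 24 libraries lost Parp1 (adjusted p = 0.105) and Zc3hav1 (0.056). There 0 genes were lower in 1 fit over all 24 libraries and 0 to 1 when a library was left out, against 1. For IFNβ against IFNγ in C2 cells, 2 were lower with DESeq2, the filterByExpr minimum and 1 fit over all libraries, against 1, Parp1 being added. For the IFNγ effect in C2 minus B16 cells, 2 were lower with the filterByExpr minimum, no filter, a robust fit and the replicate block, and 1 to 2 when a library was left out, against 1, Parp8 being added. For the STING agonist effect 3 to 5 were lower when a library was left out, against 5, and the robust fit lost Parp14 (adjusted p = 0.0853). For C2 against B16 cells with IFNβ 1 to 2 were higher when a library was left out, against 1. The cause of these changes was not tested. Parp3 in the IFNβ over IFNγ difference gained a call without a filter (0.31). The values that changed sign were not called, and lay between -0.28 (Parp14 with STING agonist in C2 cells) and 0.15 (Parp8 in B16 cells). Parp11 for B16 IFNβ against IFNγ was -0.010 with DESeq2, -0.010 with RLE and -0.0069 in 1 fit, and Parp3 for the STING agonist effect was -0.0042 with DESeq2 and -0.0039 with RLE. The other sign changes came from leaving out a library. In C2 STING agonist against vehicle the ranges were Dtx3l -0.26 to 0.036, Parp9 -0.0093 to 0.13, Parp11 -0.055 to 0.13, Parp14 -0.51 to 0.0086, Zc3hav1 -0.056 to 0.071. In B16 STING agonist against vehicle the ranges were Parp8 -0.0039 to 0.29. In B16 IFNβ against IFNγ the ranges were Parp11 -0.040 to 0.079. In C2 IFNβ against IFNγ the ranges were Parp8 -0.096 to 0.0012. In the IFNβ effect in C2 minus B16 cells the ranges were Parp8 -0.16 to 0.13. In the STING agonist effect in C2 minus B16 cells the ranges were Parp3 -0.049 to 0.060. In C2 against B16 cells with IFNγ the ranges were Parp1 -0.056 to 0.0025. In C2 against B16 cells with IFNβ the ranges were Parp1 -0.024 to 0.052.

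Deviations from the group means of same-numbered libraries correlated between -0.145 and 0.164 in B16 and between -0.221 and 0.203 in C2 cells. For libraries with unlike numbers the ranges were -0.160 to 0.172 and -0.320 to 0.291. Of the 24 libraries, 6 were closest to one with their own number. Whether same-numbered libraries were handled together cannot be told from these values. With the replicate block the call gained was Parp8 (adjusted p = 0.0458), and it changed no other call. Among the STING agonist calls in B16 cells those of Zc3hav1 and Parp1 were lost under some alternatives. Parp14 in C2 cells rests on 34 to 67 reads with vehicle.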

Other observations

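A transcript of unknown function, 4930599N23Rik, starts 124 bp from the start of Parp12 on the opposite strand, so the short stretch printed for Parp12 lies between both starts. It was chosen after its values were seen. In B16 cells it had 1, 2 and 3 reads with vehicle, 13, 18 and 14 with IFNγ and 19, 16 and 15 with IFNβ, and the change was called with both (log2 2.85, adjusted p = 0.000167, and 2.91, adjusted p = 9.53e-05). In C2 cells it had 0, 4 and 0 reads with vehicle, 3, 2 and 14 with IFNγ and 40, 23 and 22 with IFNβ, and was called with IFNβ (3.72, adjusted p = 0.000141) and not with IFNγ (adjusted p = 0.205). Its exons share no bases with those of Parp12 in the files, and whether reads from the start of Parp12 were counted on it was not tested. The other tested genes within 150 kb of Parp12 were Kdm7a, which changed by 0.35 and 0.29 with IFNγ and IFNβ in B16 cells, and 1700025N23Rik. The latter was called with IFNβ in C2 cells (log2 5.48, adjusted p = 0.0212). It was not called with IFNγ in C2 cells (3.90, adjusted p = 0.233), nor in B16 cells with IFNγ (0) or IFNβ (3.44, adjusted p = 0.233). Its read counts are not reported here.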
